A study of Mus musculus with 2 samples.

Results

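The genes described here make cholesterol and fatty acids and control how much of each a cell makes: 35 genes taken by symbol, out of 37074 gene names on the array. They were found as all non-control probes carrying one of the symbols, which gave 73 probes with at least 1 probe for every gene. Each gene was read on its brightest probe free of a purine repeat, and for 34 of the 35 both arrays read it well above background, called measured here. The exception, Elovl6, has only a repeat-bearing probe. It is shown but enters no count.

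RNA came from dorsal root ganglion (DRG) neurons of 2 groups of C57BL/6 mice. Dock8-/- mice with the AND T cell receptor transgene carry the label of a high interleukin-31 (IL-31) level, and Dock8+/- mice with the same transgene that of a low level. Each group has 1 Cy3 array on a shared slide. Both groups carry the transgene, and the comparison group is heterozygous rather than wild type. Age, sex, the number of mice and any pooling are not given in the sources used here. The comparison asked how DRG expression differs between the genotypes, and a difference between 2 arrays has no replicate check.

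Cholesterol is built from acetyl-CoA through mevalonate and squalene, and the sterol-regulated factors SREBP-1 and SREBP-2 switch the genes of this route on when membrane sterol is low. SCAP carries SREBP to its activation and the INSIG proteins hold it back, whereas the liver X receptors (LXR) respond to excess sterol by inducing exporters such as ABCA1. In peripheral nerve, myelinating glia make large amounts of membrane cholesterol, and neurons also receive it from the glia around them.

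The array is a set of oligonucleotide probes of 60 bases, and the processed signal is the brightness of a spot after background subtraction. Its 75th percentile was 146 in Dock8-/- and 304 in Dock8+/-, where 50.7% and 56.9% of probes were well above background. Differences are therefore given on the log2 scale as Dock8-/- minus Dock8+/- after each array's 75th percentile was subtracted, and 2-fold is used as a description of size. On the scale of the spike-in transcripts every difference is shifted by -1.84. Repeated spots of a probe were tight, with an expected SD of 0.0635 for a difference of single spots, but the measured probes of 1 gene had a root mean square SD of 0.592 over 6177 genes. The labels could not be checked against Dock8. Only 1 of the gene's 5 probes exceeded background clearly, and that on the Dock8+/- array (6.87 in Dock8-/-, 20.5 in Dock8+/-). Sensory neuron markers were read on both arrays for 14 of 14 genes, beside markers of glia, macrophages, fibroblasts and muscle, so the RNA was not of neurons alone.

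The promoters are shown first, because sterol-regulated genes are commonly read through short shared elements: the sterol regulatory element bound by SREBP, searched as TCACNCCAC, and the CCAAT box of the cofactor NF-Y. Both strands of the 250 bases before each RefSeq start site (GRCm38.p6) were searched. A gene with several start sites counted as holding an element if any of them did. For the promoters printed below, the site with the most CCAAT boxes was taken. A promoter sequence was matched for 27 of the 35 genes and for 27025 genes in all. The CCAAT box was present in 19 of the 27 (70.4%), against 37.5% of all genes. All 5 promoters of the mevalonate steps and all 9 of the steps from squalene to cholesterol held it, as did 4 of 5 in the sterol-sensing group, 1 of 5 in the fatty acid group and 0 of 3 in the LXR group. The stricter sterol element was found in 1 of the 27, Hmgcs1, and in 1.22% of all genes. Below are the Hmgcs1 promoter up to its start site (chr13:119690101-119690350, plus strand) and 60-base stretches for Lss (chr10:76531516-76531575, plus strand) and Dhcr7 (chr7:143830138-143830197, plus strand), the enzymes at the ends of the range seen on the arrays, and for Insig1 (chr5:28071169-28071228, plus strand), the sensing gene furthest from 0. Capitals mark the CCAAT box, which reads ATTGG in these stretches, and in Hmgcs1 also the sterol element.
Hmgcs1: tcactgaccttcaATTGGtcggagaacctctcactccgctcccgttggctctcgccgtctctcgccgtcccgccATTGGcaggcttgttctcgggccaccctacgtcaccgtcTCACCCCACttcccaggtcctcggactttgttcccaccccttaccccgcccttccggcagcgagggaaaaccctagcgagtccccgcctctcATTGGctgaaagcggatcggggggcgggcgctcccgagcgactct
Lss: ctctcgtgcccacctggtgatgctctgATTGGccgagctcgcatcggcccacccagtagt
Dhcr7: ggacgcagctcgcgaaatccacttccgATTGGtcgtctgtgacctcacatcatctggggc
Insig1: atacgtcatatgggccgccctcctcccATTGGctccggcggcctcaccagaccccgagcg
The 19 measured genes that hold the box had a median difference of -0.05 and ran from -0.84 to 1.21. The 7 measured genes without it had a median of 0.44 and ran from -2.02 to 0.61. Those 7 are genes of the fatty acid and LXR groups and Scap, so the box cannot be told apart from the role. A link between the box and the differences was not tested. These matches describe letters in a window and show no binding.

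As a set, the genes of cholesterol and fatty acid synthesis lay close to 0. Of the 34 measured, 1 (Lss) was 2-fold or more higher in Dock8-/- and 1 (Nr1h3) lower by as much, where 8.70% of 18575 measured genes were that much higher and 7.06% that much lower. Their median difference was 0.01 against 0.02 over all measured genes, with 18 above 0 and 16 below. Differences of at most 0.5 in either direction were found in 29 of the 34 (85.3%), and in 55.7% of all measured genes. Many of the 34 are bright, and bright genes differed less: in the brighter part of the measured genes, those whose scaled signal averaged over both arrays reached the median, 4.48% were higher by 2-fold, 5.11% lower by 2-fold and 66.0% within 0.5. Of the 29 pathway genes in that brighter range, 0 were 2-fold apart and 27 (93.1%) lay within 0.5. Lss and Nr1h3 both fall below this cut, which was chosen after seeing the data, so the 0 follows from where it lies. Within the brighter range the pathway genes were not matched to the other genes by brightness. No test was possible with 1 array per genotype.

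**Figure D1:**
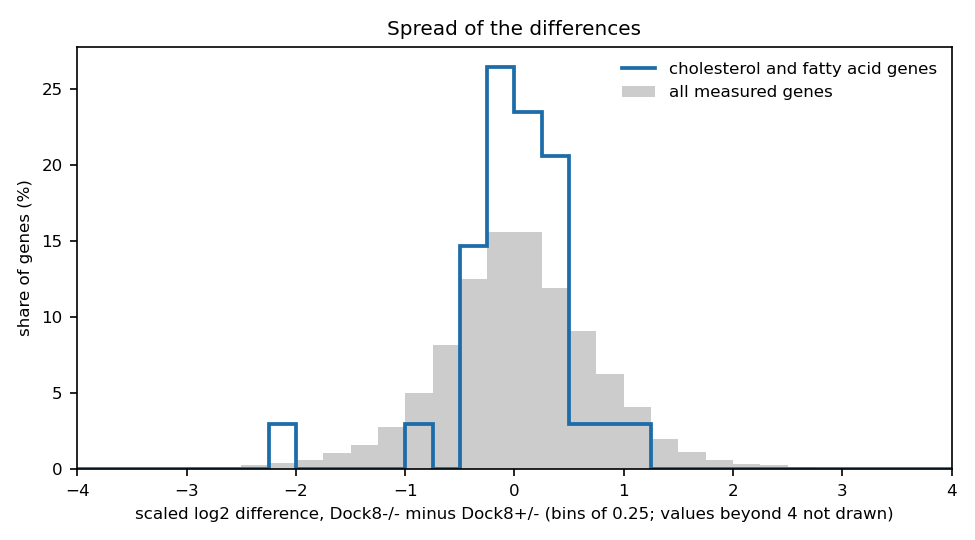
Share of genes (%) by scaled log2 difference, Dock8-/- minus Dock8+/-, in bins of 0.25. The outline shows the 34 cholesterol and fatty acid genes and the grey area all 18575 measured genes; the outline is narrower, with 29 of 34 genes within 0.5 of 0 and single genes at -2.02 and 1.21.

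The mevalonate steps turn acetyl-CoA into squalene. The 7 genes of the set that act there lay between -0.39 and 0.27, with a median of -0.06, and 0 were 2-fold apart. Hmgcs1, which makes HMG-CoA at the entry to the pathway, had a processed signal of 10511 in Dock8-/- and 18166 in Dock8+/-, a scaled difference of 0.27. Its other probe went the other way, with 14.4 in Dock8-/-, not well above background, and 108 in Dock8+/-, and so was at least 3.21-fold lower in Dock8-/-. Idi1, the isomerase of isopentenyl diphosphate, gave 1583 and 3262, a difference of 0.02. Fdps, which joins the isoprenoid units to farnesyl diphosphate, gave 4929.8 and 11133, a difference of -0.11. On their brightest probes these 3 enzymes were thus dimmer in Dock8-/- before scaling and within 0.5 of 0 after it. Fdft1, squalene synthase, had signals of 4639.8 and 10102 and a difference of -0.06. The kinase Pmvk had 5379.6 and 9606, a difference of 0.23. The decarboxylase Mvd had 284 and 777, a difference of -0.39. Mvk, mevalonate kinase, also had probes that differed. Its brightest probe gave 2007 and 5170.1, a difference of -0.30, while its dim probe gave 41.3 and 220, a difference of -1.35.

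Between squalene and cholesterol, Lss was higher and Dhcr7 lower in the Dock8-/- sample, and the other 8 genes lay between -0.20 and 0.50. The group of 10 had a median of 0.00. Lss, lanosterol synthase, closes the ring of the sterol skeleton. Its signal was 293 on the Dock8-/- array against 264 on the Dock8+/- array, the only one of 34 genes with the higher unscaled signal in Dock8-/-, and its scaled difference of 1.21 (2.32-fold) turned to -0.62 on the spike-in scale. The size depends on the probe. The next brightest gave 224 and 319, a difference of 0.55, and the dimmest gave 50.4 and 89.4, a difference of 0.24. All 3 Lss probes were thus above 0 after scaling, and 1 of them was past 2-fold. Over the mean of its probes Lss came to 0.67, and under normexp background correction to 0.93, both short of 2-fold. They lie on chromosome 10 of the build mm9, at chr10:76019513-76019572, chr10:76016592-76016651 and chr10:76015992-76016051, all on the plus strand. Since the size turns on which of them is read, the first 30 of their 60 bases follow in that order.
Lss, brightest: gctgatcatacacagccaatcacgcgcaca
Lss, next: ggcactccacacatggtacatagacataca
Lss, dimmest: cgcttaaagttcttggactagcttcagtga
The exons and UTRs of mm9 were not analysed here.

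Sqle, squalene epoxidase, which controls entry into the sterol branch, had signals of 4566 in Dock8-/- and 6757 in Dock8+/-, a difference of 0.50. Cyp51, which removes a methyl group from lanosterol, had 724 and 1309, a difference of 0.21, and its second probe gave 0.41. Dhcr7, the reductase of 7-dehydrocholesterol at the last step, had 104 and 389, a difference of -0.84 on its only probe. This was the lowest value of the 10 and short of 2-fold. Msmo1 and Nsdhl, which act in succession on the methyl groups at position C-4 of the sterol, gave -0.05 and -0.12. The other Nsdhl probe, at 9.94 in Dock8-/- and 57.7 in Dock8+/-, was well above background in Dock8+/- only and at least 1.72-fold lower in Dock8-/-. Hsd17b7, the ketone reductase of the same complex, gave 0.16 on its brightest probe and -0.48 and 0.93 on the others. Tm7sf2, a sterol reductase, gave -0.18 and -0.31 on its 2 probes. Ebp, the sterol isomerase, had signals of 2651 and 6367 on its bright probe, a difference of -0.20, and 132 and 739 on its dim probe, a difference of -1.43. Sc5d, the desaturase after it, behaved alike, with 0.06 on the bright probe (823 and 1652) and -1.33 on the dim one (92.8 and 486). Markers of myelinating Schwann cells, heavy users of this route, were read for 11 of 12 genes with a median of -0.14 and a range from -1.49 to 1.27, and the twelfth, Cldn19, was read in Dock8+/- only and at least 10.2-fold lower in Dock8-/-. Their summed scaled signal was 623 in Dock8-/- and 686 in Dock8+/-. For satellite glia the list was higher in 8 of 10 genes, with sums of 474 and 242 and a median of 0.79, which lies below 0 on the spike-in scale. Markers of central astrocytes and oligodendrocytes were measured for 8 of 9 genes, with a median of 1.25 (below 0 on the spike-in scale), 6 past 2-fold, and sums of 65.3 and 18.0, and the ninth, Opalin, was read in Dock8+/- only and at least 1.23-fold lower in Dock8-/-. The part of these cell types in the sterol values was not tested.

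**Figure D2:**
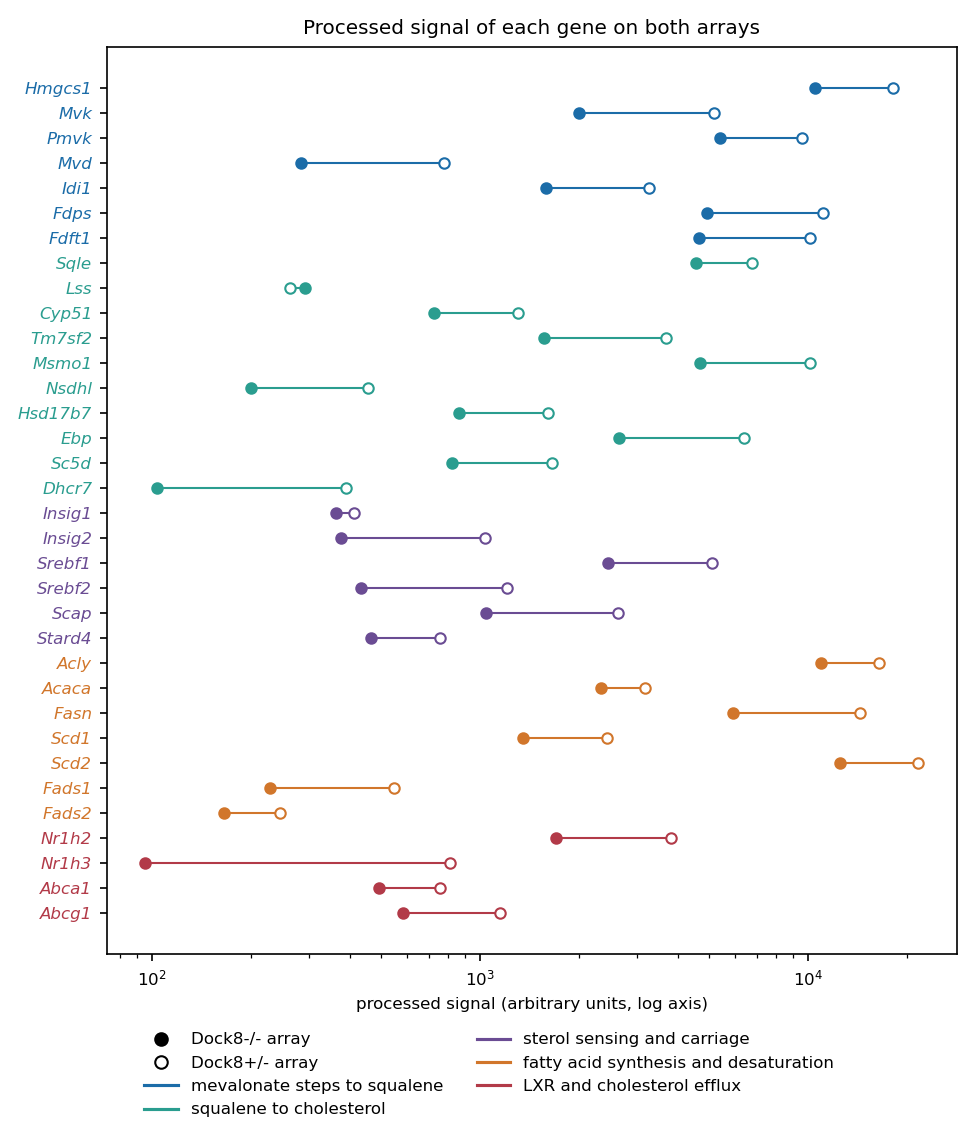
Processed signal (arbitrary units, log axis) of the brightest repeat-free probe of 34 genes, with filled points for the Dock8-/- array and open points for the Dock8+/- array, coloured by role. The Dock8-/- point is left of the Dock8+/- point for 33 of 34 genes, Lss being the exception, and Nr1h3 has the widest gap, at 95.4 against 809.8.

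Among the genes that sense sterol, Insig1 stood apart from its regulators. Insig1, itself a target of SREBP that retains SCAP in the endoplasmic reticulum, had 363 in Dock8-/- and 412 in Dock8+/-, a difference of 0.88 (1.84-fold, on its only probe). Its relative Insig2 had 377 and 1038, a difference of -0.40, and its 3 probes agreed closely, from -0.43 to -0.40. The 2 INSIG genes thus lay on opposite sides of 0 after scaling, but both were below 0 on the spike-in scale, at -0.95 for Insig1 and -2.23 for Insig2. Srebf1, encoding SREBP-1, had 2460.2 and 5099, a difference of 0.01. Srebf2, encoding SREBP-2, the main driver of sterol synthesis, had 433 and 1211, a difference of -0.42, with -0.17 on its other probe. Scap had 1040.2 and 2629.5, a difference of -0.28. None of these reached 2-fold. Stard4, a cytosolic sterol carrier, had 464 and 754, a difference of 0.36, with 0.27 on its second probe.

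Genes of fatty acid synthesis had the highest median of the 5 roles, 0.27 over 7 measured genes, and 0 were 2-fold apart. That direction does not hold on the spike-in scale. Under normexp the 7 lay on both sides of 0, from -0.45 for Fasn to 0.39 for Fads2, with Scd1 at -0.01 and Scd2 at 0.03. Acly, which makes cytosolic acetyl-CoA from citrate, had 10942 in Dock8-/- and 16459.6 in Dock8+/-, a difference of 0.47, with 1.29 on its dim probe (143 and 122). Acaca, acetyl-CoA carboxylase, which commits acetyl-CoA to fatty acids, had 2335 and 3183 on its brightest probe, a difference of 0.61. Fasn, the synthase that builds the chain, had 5902 and 14340.2, a difference of -0.22. The enzyme that supplies malonyl-CoA and the enzyme that uses it lay on opposite sides of 0 after scaling, Fasn on its only probe. On the spike-in scale both were below 0, at -1.22 for Acaca and -2.06 for Fasn.

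Acaca was read on 6 probes, more than any other gene of the set, and all 6 were above 0 after scaling, from 0.61 to 2.45, though 1 of the 6 stayed above 0 on the spike-in scale. Of these, 2 were at least 2-fold higher. The highest of the 6, designed to another transcript model, gave 146 in Dock8-/- and 55.7 in Dock8+/-. A seventh Acaca probe was well above background in Dock8-/- only, at 48.4 against 13.2, and so at least 5.82-fold higher. The brightest probe lies at chr11:84215093-84215152 and the highest at chr11:83944888-83944947 (mm9, plus strand), some distance upstream. The first 30 of their 60 bases are shown because, of the 6 measured, these give the lowest and the highest difference.
Acaca, brightest: gcttcagtccaatgcactcttctcacgttt
Acaca, highest: cagtccggtgcatgtgaccctgactcaaaa

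Among the desaturases and the elongase, only Fads1 lay below 0 after scaling when read on the brightest probe. On the spike-in scale all of them were below 0. Scd1 and Scd2, the stearoyl-CoA desaturases that make oleate, gave 0.21 (1348 and 2433) and 0.27 (12542 and 21671). Fads1, the delta-5 desaturase of polyunsaturated fatty acids, had 228 and 548 on its brightest probe, a difference of -0.20, and 1.18 on a probe of low signal (33.1 and 30.5). Fads2, the delta-6 desaturase, had 166 and 246, a difference of 0.50, and its 5 probes ranged from -0.47 to 1.58. Elovl6, which lengthens palmitate to stearate, had 1255 in Dock8-/- and 1331 in Dock8+/-, a difference of 0.98, on a single probe with a run of AG units. It lies at chr3:129337756-129337815 (mm9, plus strand), and 30 of its bases are shown with the run in capitals.
Elovl6: ccaaatcagaAGAGAGAGAGaacctctatg
The value was kept out of the counts by the rule on repeats. Adipocytes make fatty acids too, and their markers were divided: of 12 listed genes, 9 were measured, with 2 past 2-fold upward and 4 downward. Adipoq and Plin1 exceeded background clearly in Dock8+/- alone and so were at least 3.11-fold and 2.85-fold lower in Dock8-/-, Cfd was 7.80-fold lower, and Plin4 was 18.9-fold higher. The list's summed scaled signal was 23.5 in Dock8-/- and 12.6 in Dock8+/-, a direction set by Plin4 alone, which gave 18.4 and 0.97, since the other markers summed to 5.09 and 11.6. Its part in the fatty acid genes was not tested.

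**Figure D3:**
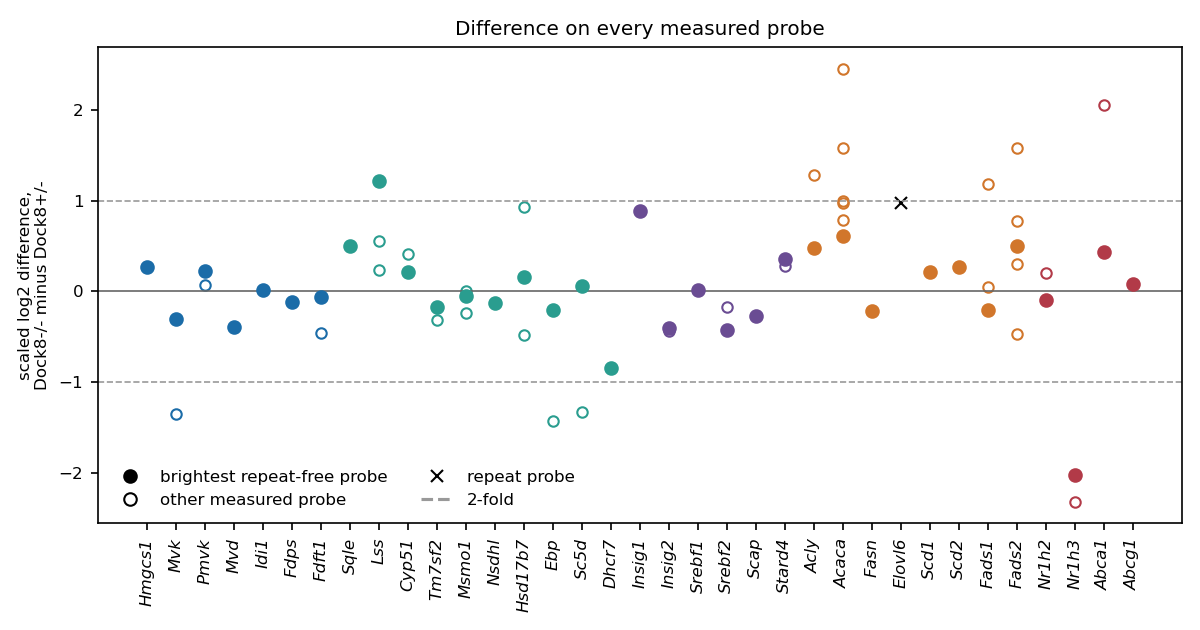
Scaled log2 difference, Dock8-/- minus Dock8+/-, for every probe of the 35 genes that was well above background on both arrays, with filled points for the brightest repeat-free probe, open points for other probes and a cross for the repeat probe of Elovl6. Dashed lines mark 2-fold; both Nr1h3 probes lie below the lower line, at -2.02 and -2.31, while 8 genes within the lines on their brightest probe have another probe outside them.

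Nr1h3, which encodes LXR-alpha, had the largest difference of the 34 genes. Its signal was 95.4 on the Dock8-/- array against 809.8 on the Dock8+/- array, a scaled difference of -2.02 (4.07-fold lower), and its second probe gave 37.4 against 388, a difference of -2.31. Of the 20 genes of the set with 2 or more measured probes, it was the only one with all of them past 2-fold. The share over all genes is not given here. Both Nr1h3 probes were designed to the same transcript and lie close together. Without the spike-ins it was lower under each alternative, from -2.17 over the mean of its probes to -1.66 under normexp background correction. The spike-in scale gave -3.86, but it moves every gene down and so is no check on a lower gene. The brightest probe lies at chr2:91024250-91024309 and the other at chr2:91024435-91024494 (mm9, minus strand). The first 30 of their 60 bases are given because this call rests on them.
Nr1h3, brightest: aacgttgtataccatctgaagaccttgttg
Nr1h3, other: gactgtttcaccgtgtcctttgtgttggcc
Nr1h3 is strongly expressed in macrophages and fat, and macrophage markers were lower beside it. All 10 listed markers were measured and below 0 on their brightest probes, from -2.87 to -0.27, and 8 were at least 2-fold lower. Csf1r and Lyz2 had a second measured probe, at 0.39 and -3.15. Adgre1 was 3.77-fold and Lyz2 7.33-fold lower, none of the 10 was below background, and the summed scaled signal was 38.9 in Dock8-/- and 147 in Dock8+/-. Fibroblast markers (9 of 10 measured, sums of 270.5 and 975) and skeletal muscle markers (4 of 10 measured, 5 more read in Dock8+/- only, sums of 2.01 and 30.9) had medians of -2.30 and -3.81. The part of macrophages or of these cells in the Nr1h3 value was not tested, and in bulk RNA fewer cells of a type and less RNA per cell cannot be told apart.

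The other 3 genes of the LXR group lay within 0.5 of 0 on their brightest probes after scaling. On the spike-in scale Nr1h2, Abcg1 and Abca1 were below 0, at -1.94, -1.75 and -1.40, as was Nr1h3. Under normexp Abcg1 came to -0.08. Nr1h2, encoding the broadly expressed LXR-beta, had 1709 in Dock8-/- and 3819 in Dock8+/-, a difference of -0.10. The exporter gene Abcg1 had 584 and 1149, a difference of 0.08. Abca1, which loads cholesterol onto apolipoprotein A-I, had 491 and 757, a difference of 0.44, and on a dimmer probe 92.7 and 46.7, a difference of 2.05. The list of other LXR targets and apolipoproteins also holds the nuclear receptors Rxra, Rxrb, Rxrg and Nr1h4. It had 6 of 12 genes above 0 and 6 below, with a median of 0.09. Both ends of its range were receptors, -0.73 for Rxrg, a partner receptor, and 1.13 for Nr1h4.

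How far the probes of a gene agree sets the limit of what can be read here. Of the 34 genes, 20 had 2 or more measured probes, and for 14 of these all probes had 1 sign. The root mean square SD between probes was 0.568 in these 20 genes, near the 0.592 over all genes. The brightest probes had median signals of 1194 in Dock8-/- and 2531 in Dock8+/-, and the 32 other measured probes 83.4 and 134. Of those 32, 6 were higher and 4 lower by 2-fold or more, whereas the brightest probes gave 1 and 1. Over 8988 such other probes of all genes, 17.2% were higher and 7.15% lower by that much. Among probes measured on both arrays, the 8 genes under 2-fold on the brightest probe but past it on another were Mvk, Ebp and Sc5d, each lower, and Abca1, Acaca, Acly, Fads1 and Fads2, each higher. Hmgcs1 joins them, as lower, through the probe read in Dock8+/- only.

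Other genes of lipid handling were listed with earlier results of these data known. Of 81 counted here, 79 were measured, 4 were higher and 4 lower by 2-fold or more, and the median was 0.00 with 62.0% within 0.5. Over all measured genes the shares were 8.70% higher, 7.06% lower and 55.7% within 0.5, so these counts do not stand above the background. The higher genes were Scd3, a desaturase best known from skin, at 2.28-fold, Fads6 at 2.18-fold, Nr1h4, encoding the bile acid receptor FXR, at 2.19-fold, and Acsl4, an acyl-CoA synthetase for arachidonate, at 2.07-fold. All 4 lay below 0 on the spike-in scale and short of 2-fold under normexp, at 0.74 to 0.93. Fads6 and Nr1h4 were short of 2-fold also under quantile normalisation (0.97 and 0.87), loess (0.87 and 0.75) and the authors' value table (0.98 and 0.89), and Nr1h4 was dim, close to the lowest signals well above background. Scd3 gave 0.96 to 1.19 on 3 probes and Acsl4 1.05 to 1.61 on 3, while Fads6 and Nr1h4 had 1 measured probe each. The lower genes were Hsd3b7, a bile acid enzyme, at 2.36-fold, Npc2, which moves cholesterol out of lysosomes, at 2.29-fold (625 in Dock8-/- and 2982 in Dock8+/-), Ugt8a, which makes the myelin lipid galactosylceramide, at 2.20-fold, and Slc25a1, the mitochondrial citrate carrier, at the threshold (654 in Dock8-/- and 2733 in Dock8+/-). The second Ugt8a probe gave 0.20 and that of Slc25a1 -0.44, so over the mean of probes they came to -0.47 and -0.72. Slc25a1 was short of 2-fold also under the 75th percentile of detected probes (-0.97), quantile normalisation, loess and the value table (-0.96 each). Ugt8a was just short of it under normexp (-0.99). Hsd3b7 and Npc2 had 1 measured probe each. Cyp27a1, a sterol 27-hydroxylase, was read on the Dock8+/- array only and was at least 2.13-fold lower in Dock8-/-.

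Apoe, the apolipoprotein that glia use to hand cholesterol to neurons, gave -0.09 on its brightest probe and -0.91 on the other. In the list of other SREBP pathway genes, 17 of 19 measured lay within 0.5, 0 were 2-fold apart, and the highest was Acsl3 at 0.84.

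**Figure D4:**
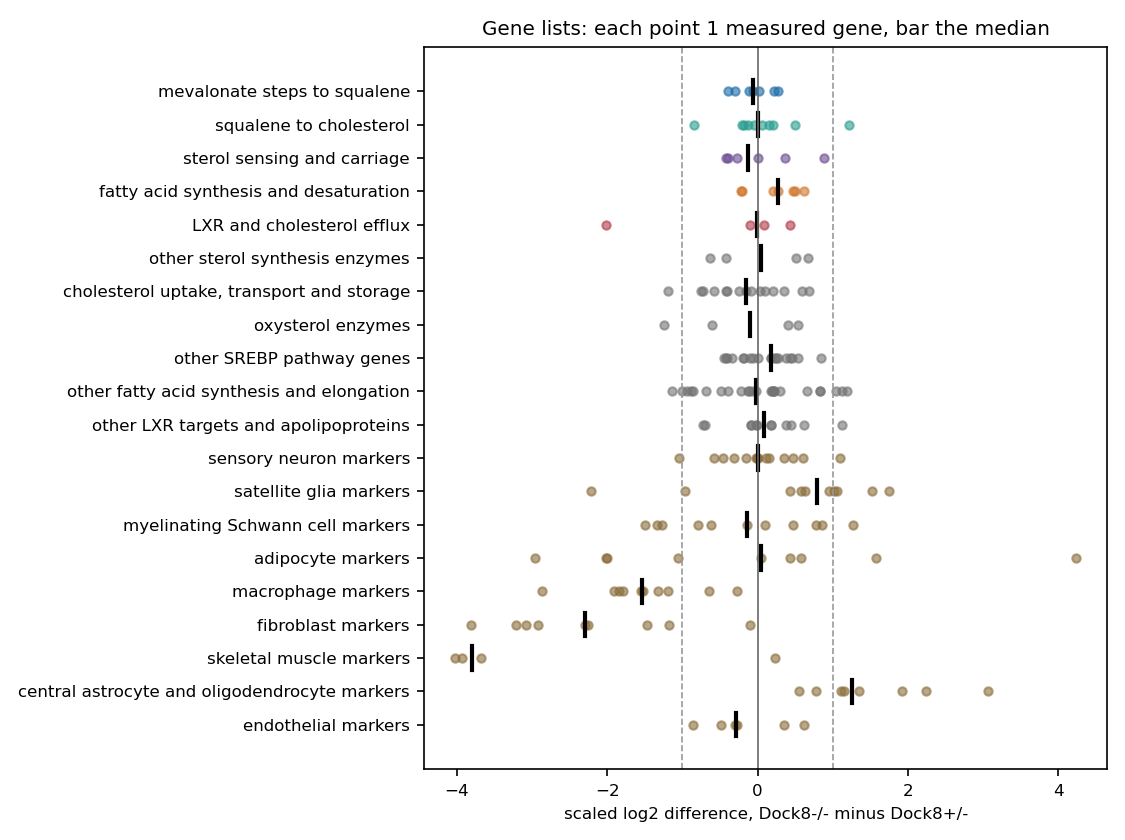
Scaled log2 difference, Dock8-/- minus Dock8+/-, of each measured gene in the 5 roles of the set (coloured), 6 lists of other lipid genes (grey) and 9 cell type marker lists (brown), with a bar at each median and dashed lines at 2-fold. The role medians run from -0.13 to 0.27, while macrophage, fibroblast and skeletal muscle markers have medians of -1.54, -2.30 and -3.81.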

How the data were processed

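RNA of DRG neurons from 1 Dock8-/- and 1 Dock8+/- sample was hybridised to Agilent arrays with 1 colour. The deposited scanner files give linear spot intensity from Feature Extraction, whose version is 10.7.1.1 per the file headers and 9.5.1.1 per the submitters' processing notes. The deposited value table also holds intensity, apparently quantile normalised: 98.9% of its sorted values were equal in both columns (tolerance 0), each median was 27.9, and its log2 values correlated at 0.999 or more with the scanner files. No centring was seen, and the direction is that of intensity.

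From the scanner files, non-uniform spots were dropped (1 on the Dock8-/- and 3 on the Dock8+/- array; 0 were saturated), log2 processed intensity was averaged per probe, and the 75th percentile over non-control probes was subtracted. Of the 35 genes' 73 probes, 57 carry an accession of the RefSeq table. A repeat probe holds at least 4 GA or GAA units (256 probes). Genes were taken by the array's own name, on the brightest remaining probe, and counted as measured if it was well above background on both arrays. Bounds use the lowest signal well above background, 16.1 on the Dock8-/- and 17.4 on the Dock8+/- array. The number of arrays limits the precision. Alternatives were other scalings (spike-ins used 8 probes), normexp (offset 50, limma 3.58.1), loess (span 0.3, statsmodels 0.14.6), the value table, other probe and filter rules, and other fold sizes. Every member is named, and other lipid genes if at least 2-fold apart or a key step. The calculation was tested on simulated data. Members and lists were chosen with earlier results of these data known, and 4 listed genes are not reported here or counted in the lists.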

Additional observations from a re-analysis of the deposited data

How the results depend on the processing

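The counts of 1 gene at least 2-fold higher and 1 lower were the same under both scalings on detected probes, quantile normalisation, loess, the value table and both other repeat rules. The medians were 0.01 to 0.07. Both looser filters could not change these counts, since all 34 genes already passed the stricter one. Spike-in scaling shifted all genes by -1.84 and gave 0 higher, 32 lower and a median of -1.82, with Lss at -0.62, Scd3 at -0.65, Fads6 at -0.71, Acsl4 at -0.79 and Nr1h4 at -0.71. Normexp moved the median gene by -0.13, with single genes moving either way, and gave 0 higher and a median of -0.16, with 27 of 34 genes on the same side of 0. The mean of probes gave 2 higher, Acaca at 1.23 and Abca1 at 1.24, and not Lss. By construction, 1.5-fold gave 3 higher and 2 lower, 3-fold 0 higher, and the brighter genes alone, a choice made after seeing the data, 0 and 0. Over all measured genes, 1616 were higher and 1312 lower, against 627 and 865 with normexp, 21 and 16219 with spike-ins, 3817 and 3154 at 1.5-fold, 413 and 424 at 3-fold, 416 and 475 among the brighter genes, 5343 and 2762 unfiltered, and 2130 and 2582 when detection on 1 array sufficed. Higher genes made up 55.2% of these, but 44.2% with loess, 42.0% with normexp, 0.129% with spike-ins, 65.9% unfiltered and 45.2% when detection on 1 array sufficed. Where no construction is named, the cause was not tested. No paired analysis was possible because each genotype had 1 array, and no replicate could be left out. Dim probes, with signals near background, limit what can be read.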
